A study of Drosophila melanogaster with 2 samples.

Results

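The intergenic peaks of CG32532 binding are the sites at which this protein was found on DNA outside every annotated gene and away from every gene start. They were chosen by the summit, the highest point of a peak, which had to lie outside the body of every annotated gene and more than 500 bp from every annotated transcription start site (TSS). Of the 5325 peaks of the conservative peak set, 580 met this rule (10.9%; 95% exact binomial interval 10.1 to 11.8%, counting error only). The other peaks were 1602 in introns away from a TSS, 157 in exons away from a TSS and 2986 within 500 bp of a TSS.

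The data come from chromatin immunoprecipitation with sequencing (ChIP-seq) of whole Drosophila melanogaster embryos aged 8 to 24 h, in 2 biological replicates of 1 group. All embryos came from transgenic flies that express CG32532 fused to enhanced green fluorescent protein (eGFP), and an antibody against GFP was used for the pull-down. Chromatin was sheared to 200 to 800 bp, so a peak marks a stretch of DNA and not a single base. There is no other condition, and whole embryos mix all cell types. Read numbers are not part of the peak lists, and sequencing depth is therefore unknown.

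CG32532 encodes a predicted homeodomain protein of the paired class, whose members bind TAAT-type sequences, singly or as pairs of facing TAAT and ATTA. Intergenic DNA of flies holds enhancers, which act on genes from a distance, and insulators, which separate neighbouring regulatory domains. Proteins known for binding insulators in flies include CTCF, BEAF-32 and Su(Hw), each with its own recognition sequence.

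The sequences at the summits show what kinds of DNA the intergenic peaks sit on. Each line below gives the 101 bases centred on a summit, read 5′ to 3′ on the forward strand of the dm6 assembly (RefSeq sequence of release 6), in lower case. The first 5 are among the 8 strongest intergenic peaks. Those near CG13323, tara and CycB, also in that group, are not printed and lacked GCGCCA in the windows counted below. The peaks at soti and Sid are shown because they hold several copies of GCGCCA on one strand or the other, and CG43245 because it holds a facing homeodomain pair. Capitals mark, on either strand, GCGCCA of the CTCF site, the BEAF-32 letters CGATA, the Su(Hw) letters TGCATA and, in CG43245, the facing pair with its 3 bases in between. Names are those of the nearest protein-coding gene by TSS.
sp3, chr3R:21520313-21520413: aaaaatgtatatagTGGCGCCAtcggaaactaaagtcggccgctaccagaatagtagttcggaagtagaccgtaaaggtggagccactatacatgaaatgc
foxo, chr3R:14053557-14053657: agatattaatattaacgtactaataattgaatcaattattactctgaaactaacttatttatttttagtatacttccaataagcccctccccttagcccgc
CG10651, chr2L:20121025-20121125: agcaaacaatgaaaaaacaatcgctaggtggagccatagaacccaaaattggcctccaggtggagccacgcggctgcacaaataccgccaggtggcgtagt
jp, chr2L:9567452-9567552: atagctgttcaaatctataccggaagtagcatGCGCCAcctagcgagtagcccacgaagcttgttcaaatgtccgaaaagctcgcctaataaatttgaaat
chinmo, chr2L:1638738-1638838: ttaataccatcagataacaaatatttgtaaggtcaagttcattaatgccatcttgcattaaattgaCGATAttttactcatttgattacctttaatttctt
soti, chr3R:14391384-14391484: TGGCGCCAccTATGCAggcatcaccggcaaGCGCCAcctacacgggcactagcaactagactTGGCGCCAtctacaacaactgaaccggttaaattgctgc
Sid, chr3R:28672350-28672450: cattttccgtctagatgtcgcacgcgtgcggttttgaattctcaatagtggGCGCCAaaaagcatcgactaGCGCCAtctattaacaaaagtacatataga
CG43245, chr3L:10738717-10738817: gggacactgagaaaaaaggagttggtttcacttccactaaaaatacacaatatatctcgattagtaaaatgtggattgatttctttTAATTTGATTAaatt
The stretches differ in base composition: GC content was 44.6% at sp3, 52.5% at CG10651 and 56.4% at soti, but 29.7% at foxo, 25.7% at chinmo and 28.7% at CG43245.

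Peak strength in a replicate was the deposited signal of the strongest ranked peak of that replicate that overlapped the site. The authors' signal has no stated scale, so it was divided by that replicate's median over the conservative set and is given as a multiple of it, called relative signal. Of the 580 intergenic peaks, 572 were found in both ranked lists. Their median relative signal was 0.877 in replicate 1 and 0.921 in replicate 2, against 0.918 and 0.995 for intronic peaks and 1.10 and 1.02 for peaks at a TSS. Relative signal was above 1 in both replicates at 194 intergenic peaks (33.4%), against 39.4% of all peaks of the set. The share was 38.1% for intronic peaks and 41.8% for peaks at a TSS. It was below 1 in both at 277 intergenic peaks (47.8%), a count that was not made over all peaks. Very strong peaks were few: 4 of the 100 strongest peaks of the set were intergenic, and 72 intergenic peaks (12.4%) exceeded 2 in both replicates, against 13.1% of intronic peaks and 17.3% of peaks at a TSS.

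**Figure D1:**
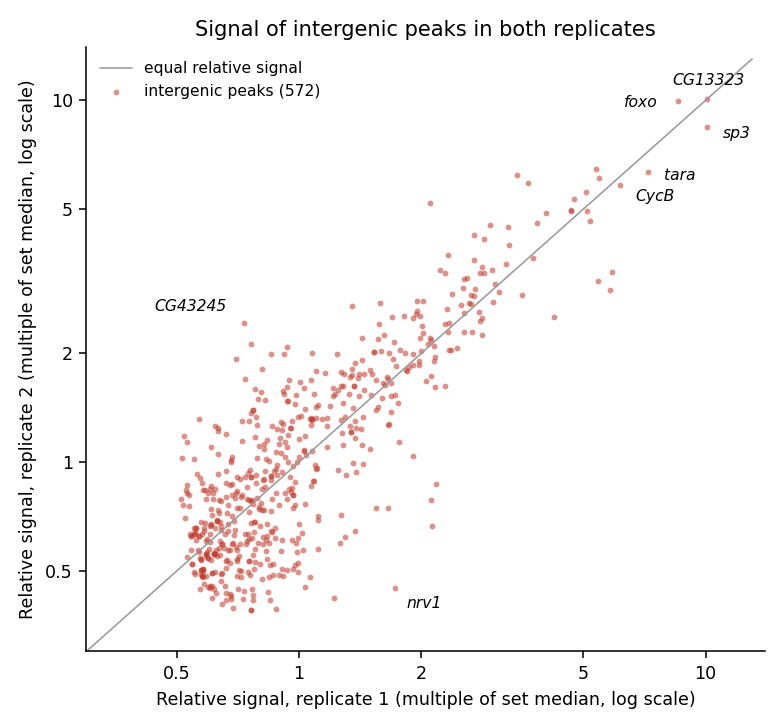
Relative signal of the 572 intergenic peaks found in both ranked lists, replicate 1 on the x axis and replicate 2 on the y axis, both on log scales in multiples of the set median; each point is 1 peak and the line marks equal values. Most points lie below 2 on both axes and scatter to both sides of the line, and CG13323, sp3 and foxo stand highest.

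The strongest intergenic peak lay on arm 2R with its summit at 13035346, in the 36783 bp between Su(z)2, a Polycomb-group gene, and CG13323. Its deposited signal was 684 in replicate 1 and 1174 in replicate 2, which is 10.1 times the set median in both. The second was 565 bp upstream of the TSS of sp3, in the stretch shared with the homeobox gene C15, with relative signals of 10.1 and 8.46 in replicates 1 and 2. The third lay 3338 bp upstream of foxo, which encodes the forkhead transcription factor of insulin signalling, with 8.57 and 9.94. A weaker peak 4584 bp upstream of foxo had 3.76 and 3.66. Next came peaks nearest to tara, a transcriptional coregulator gene (7.22 and 6.33), to CycB, which encodes a mitotic cyclin (6.16 and 5.83), to CG10651 (5.36 and 6.46) and to jp, the junctophilin gene (5.47 and 6.10). Both replicates ranked these 7 peaks far above the median, but within the 7 the order differed between replicates. The other peaks among the strongest 15 were nearest to chinmo with 3 peaks, CG13898, stck, CG7484, Ttc30 and soti, and had relative signals between 3.43 and 6.23 in single replicates.

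**Figure D2:**
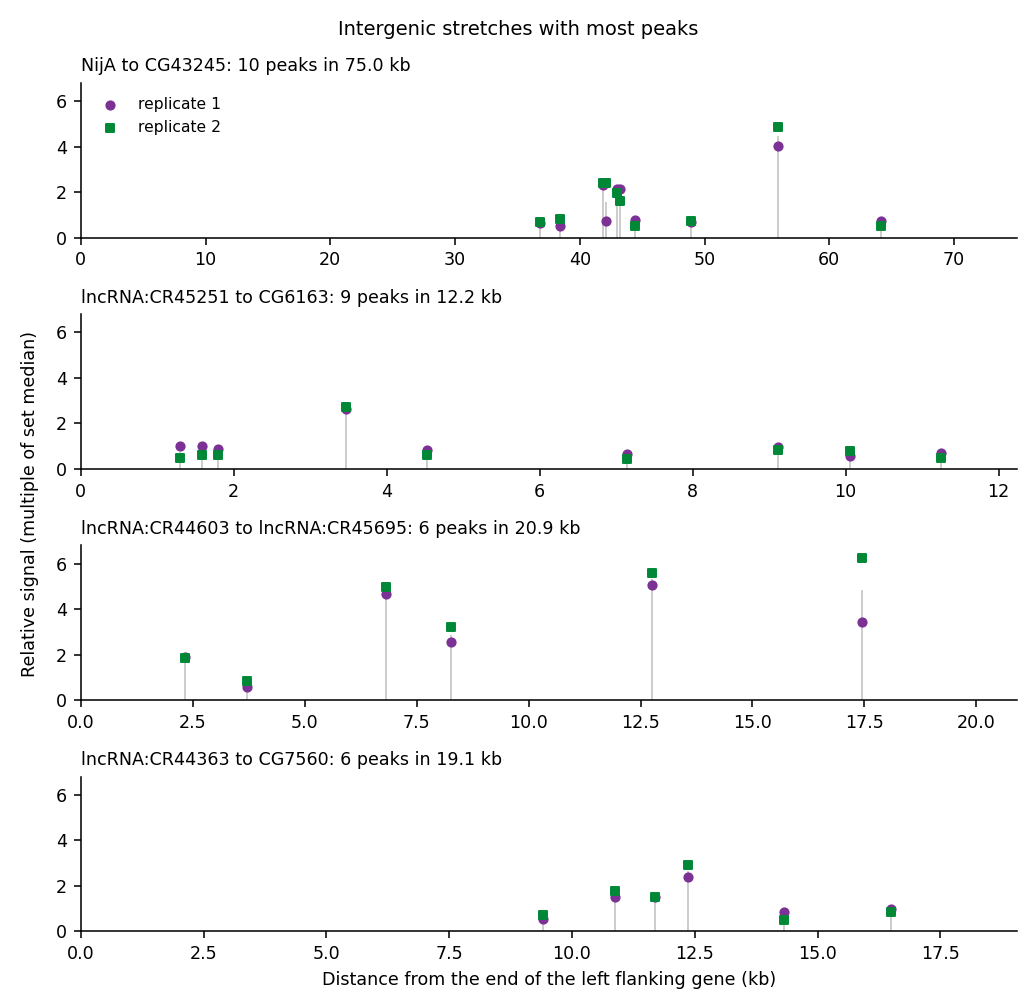
Relative signal (y axis, multiples of the set median) of the intergenic peaks in the 4 intergenic stretches that hold most of them, against distance from the end of the left flanking gene (x axis, kb); circles are replicate 1 and squares replicate 2. Peaks of differing strength stand within each stretch, and the stretch near chinmo (lncRNA:CR44603 to lncRNA:CR45695) holds 4 peaks above 2 in both replicates.

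Intergenic peaks were spread over 436 separate stretches between genes, and 351 of these held a single peak. The remaining 85 stretches held 229 peaks (39.5%). The richest was the 75047 bp between NijA, a ninjurin gene, and CG43245 on arm 3L, with 10 peaks, of which the strongest had relative signals of 4.04 and 4.89 in replicates 1 and 2. The 12242 bp between lncRNA:CR45251 and the 3′ end of CG6163 held 9 peaks, the strongest with 2.62 and 2.75 and the other 8 between 0.419 and 0.995 in every replicate. Both stretches lie on 3L, and most of their peaks were near or below the median peak.

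The stretch between the noncoding genes lncRNA:CR44603 and lncRNA:CR45695 on arm 2L held 6 peaks, 4 of them nearest to chinmo, a zinc-finger gene known for temporal identity of neurons. The peak 12470 bp upstream of the chinmo TSS had deposited signals of 344 and 649 in replicates 1 and 2, which is 5.06 and 5.58 times the median. The peak 18421 bp upstream had 4.66 and 4.98 times the median. The peak 7796 bp upstream had 3.43 and 6.23, the widest gap between replicates in this stretch, and the peak 16973 bp upstream had 2.54 and 3.21. The remaining 2, nearest to RFeSP, had 1.91 and 1.85, and 0.582 and 0.837. This stretch thus held 3 of the 15 strongest intergenic peaks.

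The densest window of 200000 bp held 37 intergenic peaks among 47 peaks of all classes, on arm 3L from summit 11256327 to summit 11449106. It runs from scyl, which encodes an inhibitor of growth signalling, past CG6163 to CG7560 and CG7557. Replicate 1's own thresholded peaks numbered 25 intergenic summits there and replicate 2's 42. The peaks in it were ordinary in strength, with a median relative signal, averaged over replicates, of 0.826 and a highest of 2.68. Per Mb of eligible intergenic sequence, arm 3L held 18.9 intergenic peaks, and 14.997 with the 37 peaks and the sequence of this window left out, against 19.4 on 2L, 14.9 on X, 13.98 on 3R and 12.8 on 2R. By share of the arm's own peaks, 14.9% on 3L and 7.49% on X were intergenic. Chromosome 4 had 1 intergenic peak and Y had 0 peaks of any class.

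By number of peaks, the genes nearest to most intergenic peaks were CG43245 with 10 and CG6163 with 9, then CG7560 and Ids with 6 each. Ids encodes iduronate 2-sulfatase, a lysosomal enzyme. Next came chinmo, CG13898, scyl and hry with 5 each, and RYBP and CG7484 with 4, as did Dyro, Reg-2 and CG44362 at a lower summed relative signal. The 5 peaks nearest to hry (hairy), the pair-rule repressor gene, lay between 3027 bp upstream and 21999 bp downstream of its TSS, and the highest relative signals among them were 1.42 and 1.23. RYBP encodes a Polycomb-associated protein.

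Intergenic peaks lay at a median of 2337 bp from the nearest TSS, with a range of 504 to 37651 bp. Density fell with distance: 46.0 peaks per Mb of eligible intergenic sequence between 500 and 1000 bp from a TSS, 27.9 between 1000 and 2000 bp, 20.6 between 2000 and 5000 bp, 11.0 between 5000 and 10000 bp, 6.93 between 10000 and 20000 bp and 1.28 beyond 20000 bp. Annotated transposable elements made up 4.18% of the eligible sequence in the nearest band and 15.2% in the farthest, and with them left out the densities of these bands were 46.9 and 1.51 per Mb. Other repeats and the share of sequence to which reads can be mapped were not examined. The eligible sequence of these bands includes 2337100 bp of Y, which had 0 peaks of any class. Densities by distance without Y were not computed. Just inside the 500 bp limit of the rule stood a peak 504 bp from a TSS near CG3348 (relative signals 2.85 and 3.32), and just outside it one 500 bp from a TSS near beat-IIa (0.983 and 1.12).

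The 12 peaks beyond 20000 bp had the highest median relative signal of the distance bands, 1.15 in replicate 1 and 1.43 in replicate 2, and 9 of them were in both replicates' own thresholded sets. The farthest lay 37651 bp from any TSS, between bab1 and bab2, which encode transcription factors of limb and pigment patterning, with 1.36 and 0.996. A peak 33843 bp downstream of the TSS of vvl, a POU homeobox gene, had 2.10 and 2.20. The other 3 of the 5 farthest lay in the NijA to CG43245 stretch, where relative signals were 0.640 and 0.685, 0.530 and 0.824, and 2.33 and 2.43 in replicates 1 and 2. The band rests on few sites, since 8 of its 12 peaks lay in the NijA to CG43245 stretch, some of them sharing a replicate's ranked peak. Those 8 had median relative signals of 0.767 and 1.22 in replicates 1 and 2, against 1.501 and 1.480 for the other 4.

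**Figure D3:**
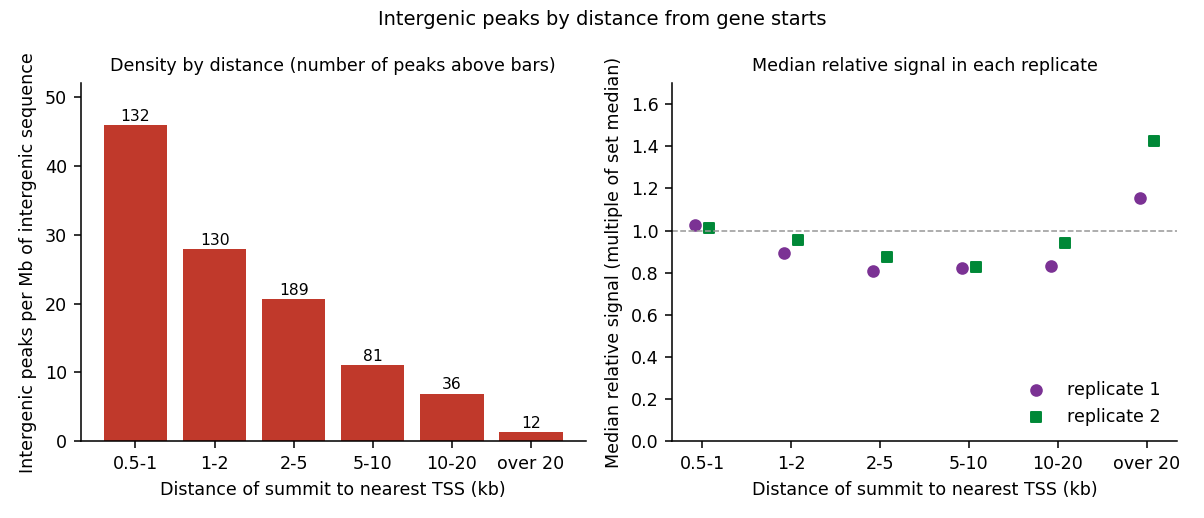
Left, intergenic peaks per Mb of eligible intergenic sequence (bars) by distance of the summit to the nearest TSS in kb, with the number of peaks above each bar; right, the median relative signal of the same peaks in replicate 1 (circles) and replicate 2 (squares). Density falls from 46.0 to 1.28 per Mb, while the median signal is lowest between 2 and 10 kb and highest beyond 20 kb, where 12 peaks stand, 8 of them in the NijA to CG43245 stretch.

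Where neighbouring genes point away from each other, density was 21.3 intergenic peaks per Mb (162 peaks), against 15.1 between genes in tandem (295 peaks) and 12.2 between genes that face each other (123 peaks). Stretches between genes that point away have a gene start at each end, and those between facing genes at neither. These densities were not split by distance to a TSS, so arrangement and distance cannot be told apart. Sequence of Y is included here too. Of all 580 peaks, 378 lay upstream of the nearest protein-coding TSS and 202 past the end of that gene. For 160 peaks (27.6%) the nearest TSS of any kind was that of a noncoding gene, and 17 peaks had a tRNA gene on at least 1 side. The nearest other peak of the set was at a median of 3305 bp; 229 peaks (39.5%) had one within 2000 bp and 168 (29.0%) had none within 10000 bp. None of the 580 lay in a gene body, or within 500 bp of a transcript start, of the RefSeq annotation either, and 4 lay in annotated transposable elements.

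Repeatability was read from the thresholded set that the authors called on each replicate alone. Of the 580 intergenic peaks, 335 overlapped both replicates' own sets (57.8%; 95% exact binomial interval 53.6 to 61.8%), against 63% of all peaks of the conservative set. A further 174 overlapped only replicate 2's set, 16 only replicate 1's and 55 neither. The share was 58.7% for intronic peaks (941 of 1602), 0.980 percentage points above that of intergenic peaks (odds ratio 0.960; two-sided Fisher's exact test, adjusted p = 0.694). It was 67.4% for peaks at a TSS (2013 of 2986), and here the difference passed the test (odds ratio 0.661; two-sided Fisher's exact test, adjusted p = 2.06e-05). These p-values treat peaks as independent and do not measure the spread between the replicates. For replicate 1's own peaks, which all overlap that set by definition, only overlap with replicate 2's set was left to compare. There the difference from peaks at a TSS did not pass the threshold (Fisher's exact test, adjusted p = 0.0522).

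The share held moved with relative signal in every class. Both come from lists of the same replicate, ranked and thresholded, so this link was largely built in. Among the strongest peaks of the set, ranked by mean relative signal and cut into 4 bands of equal size, 100% of 109 intergenic peaks were held by both own sets, against 99.7% of intronic peaks and 99.8% of peaks at a TSS. In the next band the shares were 91.6% of 143 intergenic peaks, 91.5% of intronic peaks and 90.0% of peaks at a TSS. In the band after that they were 49.6% of 141, 49.1% and 55.9%, and in the weakest 13.97% of 179, 9.76% and 11.6%. The intergenic class had 179 peaks in the weakest band and 109 in the strongest, while peaks at a TSS had 612 and 835. The part of signal in the difference between classes was not tested.

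The replicates' values differed by more than 2-fold at 29 of the 572 intergenic peaks, 14 toward replicate 1 and 15 toward replicate 2. Toward replicate 1 stood a peak 780 bp upstream of nrv1, with 1.72 and 0.447 in replicates 1 and 2, and one near RpS23, with 2.13 and 0.665. A peak upstream of scb, an integrin gene, had 1.22 and 0.421. The widest ratio toward replicate 2 was at a CG43245 peak with 0.730 and 2.43. That peak and the peak 200 bp to its left overlap the same peak of replicate 2's list, so the value of 2.43 serves both. Next toward replicate 2 were a peak near Su(z)2, a Polycomb group gene, with 0.762 and 2.12, and one near RYBP, with 0.701 and 1.93. The 1.93 is shared with another RYBP peak. In all, 55 intergenic peaks shared a ranked peak of a replicate with another intergenic peak, and values within such groups are not independent.

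GC content dipped at the summits. In the 50 bp centred on the summit its median was 35% for intergenic peaks, against 32% for intronic peaks and 38% for peaks at a TSS. On average over 580 intergenic peaks, GC content was 36.6% in the 20 bp right of the summit and 42.2% at 210 bp to the right. At these positions intronic peaks averaged 34.6% and 43.7%, and peaks at a TSS 37.9% and 41.5%. Single intergenic summits ranged from 6% to 76% over 50 bp.

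**Figure D4:**
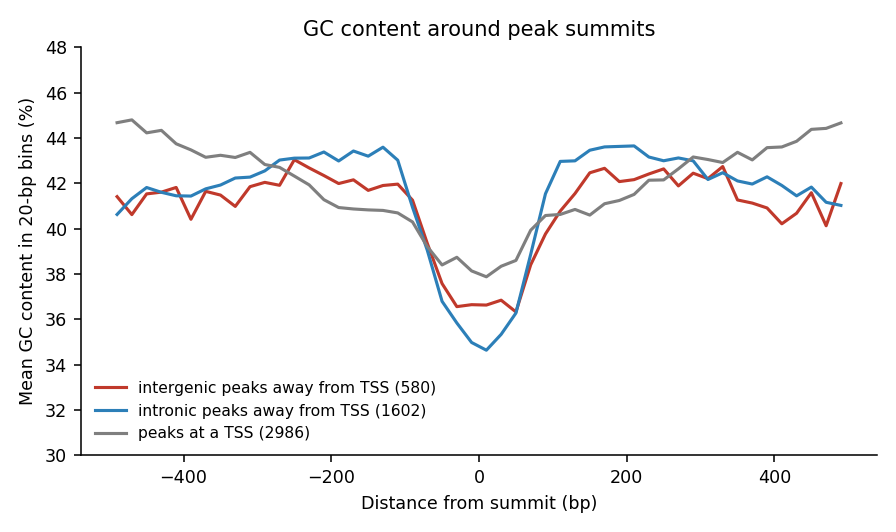
Mean GC content (y axis, %) in 20-bp bins against distance from the summit (x axis, bp) for intergenic peaks (580), intronic peaks (1602) and peaks at a TSS (2986). All 3 curves dip at the summit, intergenic peaks to 36.6%, between intronic peaks at 34.6% and peaks at a TSS at 37.9%.

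Sequence motifs were counted on both strands in the 200 bp centred on each summit. No homeodomain-type sequence differed in share from either other class past the test. TAATTA, the homeodomain core, stood in 78 of 580 windows (13.4%), against 16.0% of intronic windows and 15.5% of windows at a TSS, with an adjusted p of 0.626 for each comparison (Fisher's exact test). Windows 1000 bp to either side of the intergenic summits held it in 14.6%. TAATCC was in 35 windows (6.03%), against 5.18% of intronic windows, 5.59% of windows at a TSS and 6.90% of those flanking windows. The facing pair TAAT and ATTA was in 12 windows when 2 bases apart (2.07%, against 2.31% of intronic windows and 2.61% of windows at a TSS). When 3 bases apart it was in 13 (2.24%, against 2.81% and 2.68%). Unlike TAATTA and TAATCC, the pairs had a higher share at intergenic summits than in the flanking windows, which held them in 1.29% when 2 bases apart and 1.47% when 3 apart, a difference that was not tested. In all, 98 intergenic windows (16.9%) held TAATTA or a pair. Of the pairs, the one at CG43245 printed above belongs to a peak with relative signals of 2.33 and 2.43.

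Against intronic peaks, 0 of the 15 motifs searched (0%) passed a two-sided Fisher's exact test adjusted over 30 comparisons, and 1 had an unadjusted p under 0.05. That was a run of 8 A or 8 T, AAAAAAAA, in 13.3% of intergenic windows against 17.98% of intronic windows (odds ratio 0.698; adjusted p = 0.0701 by Fisher's exact test). It passed the same test in the optimal set, the authors' larger series-level set of 7718 peaks (exact test, adjusted p = 0.00468), and with peaks more than 1000 bp from every TSS (adjusted p = 0.0318).

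Against peaks at a TSS, 3 of the 15 motifs (20%) passed, all of them rarer at intergenic summits. The rule itself parts these classes by distance from a TSS. For promoter sequences a lower share away from a TSS follows from that rule and is no separate result. TATCGATA, the site of the promoter-binding factor DREF, stood in 4 intergenic windows (0.690%), against 7.74% of windows at a TSS (odds ratio 0.0828; two-sided Fisher's exact test, adjusted p = 2.28e-12). GGTCACACT, the core promoter sequence bound by M1BP, stood in 2 (0.345%), against 3.38% (odds ratio 0.0988; adjusted p = 4.08e-05 by Fisher's exact test). The E-box CAGCTG, a type of site bound by basic helix-loop-helix proteins, stood in 31 (5.34%), against 11.96% (odds ratio 0.416; adjusted p = 9.16e-06 by Fisher's exact test). The same 3 passed in each replicate's own set, which the same rule parts, so this adds no separate result for promoter sequences. Their shares at intergenic summits there were 1.21%, 0.485% and 6.07% in replicate 1 and 0.877%, 0.251% and 4.51% in replicate 2. GAGAG, the GAGA factor site, was also rarer than at a TSS in replicate 2's own set (25.1%, against 30.4%; Fisher's exact test, adjusted p = 0.02). It passed in the optimal set too (23.8%, against 28.7%; exact test, adjusted p = 0.0169). In windows of 100 bp GGTCACACT and CAGCTG missed the threshold (Fisher's exact test, adjusted p = 0.155 each).

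**Figure D5:**
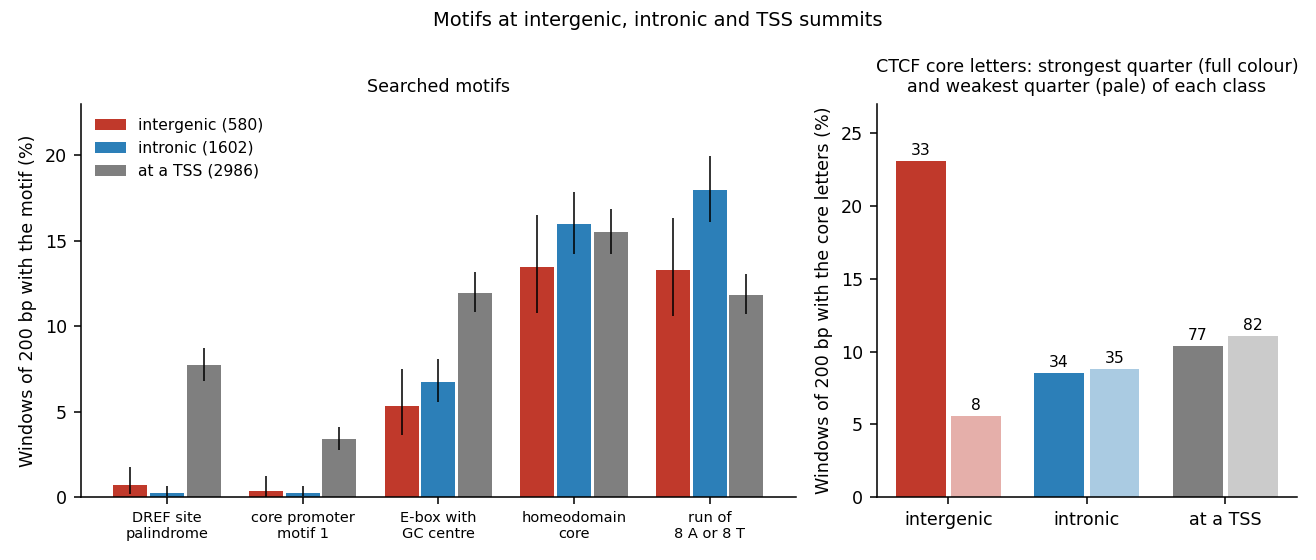
Left, share of 200-bp summit windows (y axis, %) with 5 of the searched motifs in intergenic, intronic and TSS peaks, with 95% exact binomial intervals that cover counting error only; right, share with the CTCF core letters GCGCCA in the strongest (full colour) and weakest (pale) peaks of each class, with the number of windows above each bar. The DREF, core promoter and E-box motifs are lower in intergenic than in TSS peaks, and the CTCF core letters are at 23.1% in the strongest and 5.59% in the weakest intergenic peaks of this set; the weakest are at 14.3% and 13.4% in the own sets of replicates 1 and 2, which are not drawn.

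Core letters of insulator sites were counted after the sequences above had been seen, so they carry no test. GCGCCA, which stands in the core of the fly CTCF site, was in 85 of 580 intergenic windows (14.7%), against 7.30% of intronic windows and 11.0% of windows at a TSS, and in 10.4% of all windows of the set. Windows 1000 bp to either side of the intergenic summits held it in 9.22%. In the replicates' own sets the intergenic share was 16.5% in replicate 1 and 15.5% in replicate 2, the intronic share 8.16% and 7.34%, and the share at a TSS 10.5% and 10.3%. Windows with GCGCCA are richer in GC: their median over 200 bp was 39.5% at intergenic summits with it and 36% at those without it.

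Within the intergenic class GCGCCA was more frequent in strong than in weak peaks, by a margin that differed between peak sets. The letters were chosen after sequences, chiefly of strong intergenic peaks, had been seen. This contrast and that of the 50 strongest peaks below therefore reuse peaks behind the choice. Among the strongest 143 intergenic peaks, 33 windows (23.1%) held GCGCCA, against 8 (5.59%) of the weakest 143. In replicate 1's own set 25 of the strongest 98 (25.5%) held it, against 14 of the weakest 98 (14.3%), and in replicate 2's own set 42 of the strongest 186 (22.6%), against 25 of the weakest 186 (13.4%). In the optimal set it was 45 of the strongest 218 (20.6%), against 30 of the weakest 218 (13.8%). The shares in strong peaks were close between sets, but the sets have strong peaks in common. Of the strongest 143 of the conservative set, 142 overlapped both replicates' own sets, so this closeness is no independent repeat. The weakest peaks of the other 3 sets held GCGCCA more often. In intronic peaks 34 of the strongest 397 (8.56%) held it, against 35 of the weakest 397 (8.82%), and at a TSS 77 of the strongest 740 (10.4%), against 82 of the weakest 740 (11.1%). Among the 50 strongest peaks of each class, 17 intergenic windows held it, against 2 intronic windows and 7 at a TSS. These 50 are a larger part of the 580 intergenic peaks than of the 1602 intronic peaks or the 2986 at a TSS. The 85 intergenic peaks with GCGCCA had median relative signals of 1.07 and 1.31 in replicates 1 and 2, against 0.850 and 0.878 for the 495 without it. TAATTA was also more frequent in strong peaks, in 26 of the strongest 143 (18.2%), against 15 of the weakest 143 (10.5%). The pair 3 bases apart was in 6 (4.20%), against 3 (2.10%). These TAATTA and pair counts are of intergenic peaks of the conservative set alone and were not tested. The strongest 143 were also lower in GC content, with a median of 35.5% over 200 bp, against 39% in the weakest 143.

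Peaks with GCGCCA included some of the strongest intergenic sites: sp3, jp, CG7484 and soti among the first 15, then CG14762 (5.43 and 3.17 in replicates 1 and 2), Gr89a (2.94 and 4.53), Atf3 (3.28 and 3.98) and Sid (2.69 and 4.25). The soti window of 200 bp held it 6 times, counted on both strands. A TGGCGCCA, as printed for soti and sp3, is counted once on each strand, so separate sites are fewer. The shorter soti stretch printed above holds most of these counts. The other strong sites printed, foxo, CG10651 and chinmo, do not hold GCGCCA in the bases shown. By position, peaks with GCGCCA lay at a median of 1590 bp from a TSS and those without it at 2485 bp.

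The other insulator core letters differed less from intronic peaks in their share of all intergenic windows. TGCATA, from the Su(Hw) site, was in 91 intergenic windows (15.7%), against 14.4% of intronic windows and 10.8% of windows at a TSS, and in 34 of the strongest 143 intergenic peaks (23.8%), against 18 of the weakest 143 (12.6%). In replicate 1's own set that was 20.4%, against 15.3%, and in replicate 2's 23.1%, against 15.1%. In the optimal set TGCATA was in 49 of the strongest 218 (22.5%), against 21 of the weakest 218 (9.63%). That gap was wider than the gap of GCGCCA in the same set (20.6%, against 13.8%). CGATA, from the BEAF-32 site and also part of TATCGATA, was in 125 (21.6%), against 20.7% of intronic windows and 39.2% of windows at a TSS. It was in 40 of the strongest 143 intergenic peaks (28.0%), against 28 of the weakest 143 (19.6%).

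Genes known as regulators of development were the nearest gene of a minority of intergenic peaks. Of 580, 45 (7.76%) were nearest to a gene of 2 transcription factor lists, against 4.92% of all 5325 peaks, 8.74% of intronic peaks and 2.31% of peaks at a TSS. Homeobox genes accounted for 11 peaks (1.90%, against 0.939% of all peaks; 1.94% and 3.51% of intergenic peaks in the own sets of replicates 1 and 2) and other developmental transcription factors for 34 (5.86%, against 3.98%). These lists were described by counts, with no test of their own.

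Among homeobox genes, ems, a head patterning gene, had a peak 13054 bp downstream of its TSS with 2.36 and 2.05 in replicates 1 and 2. The vvl peaks had 2.10 and 2.20, and 1.64 and 1.72. A peak 507 bp upstream of PHDP, itself a paired-class homeobox gene, had 0.947 and 1.68. Among the other transcription factors, foxo led, followed by noc, a zinc-finger gene (2.71 and 3.02), and the T-box gene Doc2 (1.98 and 2.54). The gene of the tagged protein, CG32532, was nearest to 1 intergenic peak, 2759 bp upstream of its TSS on X, with 1.03 and 0.452.

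In signalling, 7 intergenic peaks (1.21%, against 1.56% of all peaks) were nearest to a listed gene. The strongest were near the ligand genes Wnt4 (1.49 and 1.80) and upd1 (1.37 and 1.88) and the Hedgehog receptor gene ptc (1.14 and 1.32). Axon guidance and adhesion genes accounted for 5 peaks (0.862%, against 1.03%), led by the netrin receptor gene unc-5 (3.54 and 2.90), then 18w, a Toll family gene (2.11 and 2.18), and ed, an adhesion molecule gene (1.75 and 1.46). Muscle genes accounted for 4 peaks (0.690%, against 0.526%), among them lmd, a muscle transcription factor gene (1.91 and 1.99), the Z-disc gene Zasp52 (1.10 and 1.79) and the actin gene Act57B (0.812 and 1.81). Stress and hormone response genes had 4 (0.690%, against 0.563%), led by the lactate dehydrogenase gene Ldh (1.54 and 1.68) and including peaks near the cell death genes hid (0.825 and 0.852) and rpr (0.967 and 0.508). Cuticle and epidermal genes also had 4 (0.690%, against 0.169%), led by Cpr76Ba (5.87 and 3.36), with another near the cuticle protein gene Cpr65Ec (0.822 and 0.901).

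Synapse, transmitter and ion channel genes had 3 peaks (0.517%, against 0.751% of all peaks). They lay near the serotonin receptor gene 5-HT7 (0.998 and 1.16), the glutamate receptor gene GluRIIB (0.699 and 0.822) and Ddc, which encodes dopa decarboxylase and is also on the cuticle list (0.632 and 0.738). Among intergenic peaks of the replicates' own sets the list took 0.243% for replicate 1 and 0.877% for replicate 2. Glial and tracheal genes had 2 (0.345%, against 0.338%), both near vvl, and ribosomal and translation genes 1 (0.172%, against 0.620%), near RpS23. With counts this small, 95% exact binomial intervals are wide, for example 0.188 to 1.76% for the 4 cuticle peaks.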

How the data were processed

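The deposited files hold peaks on dm6, the assembly named in the labels, ordered by irreproducible discovery rate (IDR) per the file headers. Each replicate's lists were called on that replicate alone, the series-level lists on both pooled. The deposited score stands for the IDR, 830 for an IDR of 0.01, and 1000 is the top. The deposited signal is the authors' peak strength, on a scale that is not stated. The aligner and the caller have names not given in the sources used here. In the series-level ranked lists, 16 unnamed value columns were left unused. No counts or depths are given.

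Summits were classed with Ensembl release 115 genes (18277, of which 13968 are protein-coding) on the 7 main arms, without transposable elements. The RefSeq genome was used as dm6 (its name there is release 6): 99.83% of 30618 annotated start codons read ATG on it. Relative signal is a replicate's signal over its median in the conservative set, for peaks found in both ranked lists. Shares were compared by two-sided Fisher's exact test with Benjamini-Hochberg adjustment (2 comparisons of held peaks, 30 of motifs; threshold 0.05). Intervals are 95% exact binomial. The functions were tested on simulated data. Scripts used Python 3.11 with pandas and scipy.

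The peak class, the 10 gene lists, the 15 motifs and the rule for named genes were chosen with earlier results of these data known. Named are CG32532, the nearest genes of the 15 strongest intergenic peaks, the 10 genes nearest to most, the 3 strongest per list, the 5 peaks farthest from a TSS and the 3 most uneven peaks each way. The insulator letters, the dense window, Sid, Gr89a, Atf3, CG14762, Dyro, Reg-2, CG44362, CG3348 and beat-IIa were chosen after their values were seen.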

Additional observations from a re-analysis of the deposited data

How the results depend on the processing

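The intergenic share of peaks was 10.4 and 11.6% in the sets of single replicates and 11.9% in the optimal set. It was 8.41% beyond 1000 bp from every TSS and 11.9% when only protein-coding bodies counted as genes. The median relative signal was 0.848 and 0.903 in single replicates and 1.14 with top scores only. Median GC content at the summit was 38 and 34% in the sets of single replicates. The share nearest to a transcription factor gene was 8.50 and 8.40% in those sets, 7.08% with top scores only, 7.37% beyond 1000 bp, 8.52% with protein-coding bodies only and 14.8% when either flanking gene counted. The share held by both own sets, intergenic minus intronic, was 0.327 percentage points with overlap of at least 50% of the peak, where its sign turned, and between -3.48 and -0.202 in sets of single replicates; neither passed the test. Minus peaks at a TSS, it was -4.22 and -13.9 points in sets of single replicates, and the first did not pass. In sets of single replicates every peak overlaps itself, so this share is that of peaks overlapping the other replicate's set. Motifs that differed from intronic peaks numbered 1 in the optimal set and 1 beyond 1000 bp from every TSS. Motifs that differed from peaks at a TSS numbered 1 in windows of 100 bp, and 3 and 4 in the sets of single replicates. The cause of these shifts was not tested. No paired analysis was possible because there is 1 group. The unknown depth and the use of 2 replicates limit every value.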
